A study of Homo sapiens with 15 samples.

Results

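The comparison of clean air flow with no exposure asks what the air flow of an air-liquid interface exposure changes by itself, before any test substance is added. It rests on 6 of the 15 samples of the series, chosen by their group labels: 3 clean air controls (CA) and 3 non-exposed controls (NEC), with 1 sample of each group on exposure plates 1, 5 and 6. All samples were A549, a human lung adenocarcinoma line with traits of alveolar epithelium, grown to confluence on porous membranes, taken off serum before exposure and fed only from below. CA cultures received clean air at 3 ml/min per cm² for 60 min, followed by 23 h of recovery, and this was done 3 times within 72 h, with dimethylamine at 0 ppm. NEC cultures had their place on the same plates and received no flow. The remaining 9 samples were exposed to dimethylamine vapour at 14.9 ppm (low dose, LD, all on plate 1), 41.1 ppm (mid dose, MD, all on plate 5) or 81.7 ppm (high dose, HD, all on plate 6), and enter here only in the shared estimate of the spread and in values set beside the comparison. Each sample was made from 2 pooled wells of this tumour cell line, so the 3 samples of CA or of NEC stand for 3 plates and not for donors. The 3 samples of a dose are repeats within 1 plate.

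RNA was measured by quantitative RT-PCR on a panel of 297 assays for 296 genes, which the study had mostly picked because they responded to dimethylamine, so that no share given below is a share of unselected genes. The instrument gives a threshold cycle (CT), the PCR cycle at which product becomes detectable. A level below is the negative of the CT after subtraction of the mean CT of GPN1 and TMEM184C in the same sample. It is on a log2 scale, on which 1 unit is a 2-fold change and a higher value is more RNA. Levels are relative to these normalisation genes, so a fall in all cells and a loss of some of the cells cannot be told apart. A difference is CA minus NEC, so that positive values stand for more RNA with clean air flow, and it is given ± SE from a limma fit with the exposure plate as a block. The spread behind this SE, and behind the intervals and p-values, was estimated from all 15 samples. More of this estimate came from the dosed samples, whose groups each lay on a single plate, than from the CA and NEC samples. The SE is therefore not the spread of the difference over plates.

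Air-liquid interface culture brings lung epithelial cells into direct contact with a gas, without a layer of medium above them. A moving gas adds shear, can dry or cool the surface and exchanges gases with the cell layer, and epithelial cells are known to answer mechanical and osmotic strain with changes in matrix, cytoskeletal and signalling genes. A549 cells also make plasma proteins that are otherwise known from liver, among them the fibrinogen chains. Of the markers fixed for epithelium, CDH1, KRT18 and CLDN2 were on the panel and had mean CTs between 19.4 and 23.5 in the 6 samples. No marker of fibroblasts or endothelium was on the panel. CD79A, a chain of the B cell receptor and the only leukocyte marker on the panel, gave a mean CT of 24.7 in these cultures.

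Between 283 and 286 wells per sample gave a product in the 6 samples, with CTs from 16.3 to 36.2. For 11 genes no well of the 6 gave a product, and for 5 genes only part of the wells did. Genes detected in both groups on at least 2 plates were tested, 284 in all. The SD between plates had a median of 0.157 in CA and of 0.189 in NEC, on the log2 scale of levels.

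Of the 284 genes, 9 (3.17%) were called at an adjusted p under 0.05 (limma, Benjamini-Hochberg over all genes tested). Clean air flow raised 7 (2.46%), among them EMP3, MMP7, IFI6, RAB3B, S100A2 and S100A6, and lowered 2 (0.704%), the fibrinogen chains FGA and FGG. In the same fit 201 genes (70.8%) were called between HD and CA, with 41.2% higher and 29.6% lower. Between MD and CA 147 (51.8%) were called, with 27.1% higher and 24.6% lower, and between LD and CA 17 (5.99%), with 3.87% higher and 2.11% lower. The samples of a dose came from a single plate. The panel had been picked largely from responses to dimethylamine measured in the same RNA. The dose shares are therefore no measure of how large the flow response was. At an unadjusted p under 0.05 the flow comparison had 59 genes (20.8%), 38 higher (13.4%) and 21 lower (7.39%). The median difference over all genes was -0.005, so the panel as a whole was not displaced between the groups. Differences over 2-fold were measured for 3 genes upwards (1.06%) and 2 genes downwards (0.704%), and the downward pair were genes near the limit of detection that were not called. An exact paired permutation test over 3 plates cannot go below a two-sided p of 0.25, so that test could call no gene. With any of the 3 plates left out, EMP3 alone was called, and without the plate in the model 3 genes were, EMP3 and IFI6 among them.

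**Figure D1:**
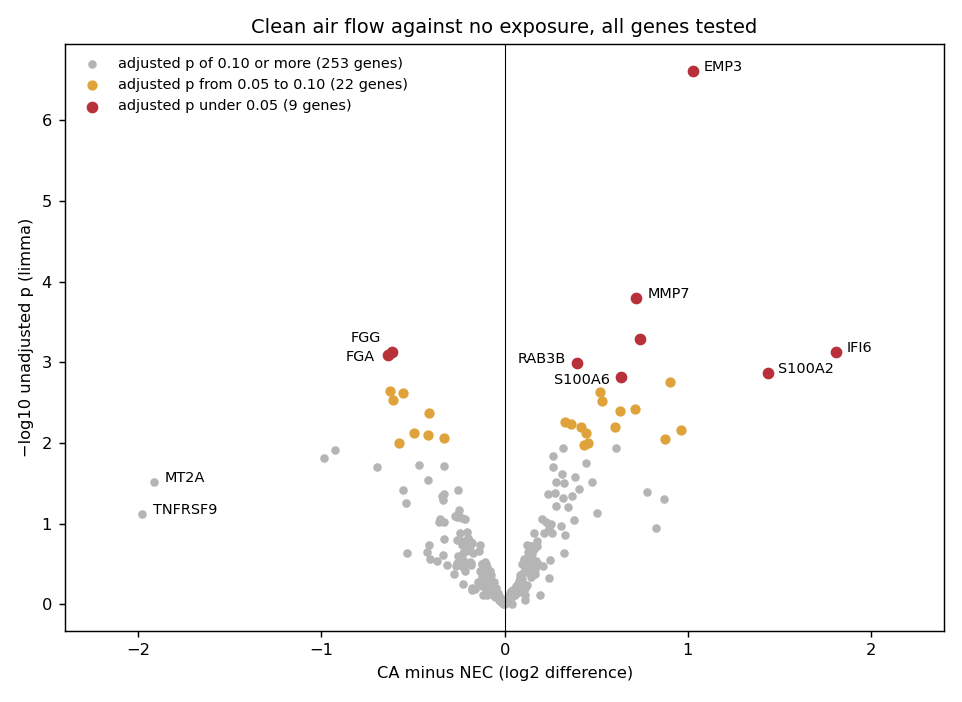
Each of the 284 genes tested, with the CA minus NEC difference (log2) on the horizontal axis and the negative log10 of the unadjusted limma p on the vertical axis. The 9 called genes are red and 8 of them are named, EMP3 stands above all others, and MT2A and TNFRSF9 are the pair with the lowest differences.

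EMP3, an epithelial membrane protein of the PMP22 family, separated the groups most clearly. Its level was 0.20, 0.26 and 0.08 in NEC on plates 1, 5 and 6, and 1.17, 1.23 and 1.23 in CA. The lowest CA sample stood far above the highest NEC sample, and the plates differed little within either group. The difference was 1.03 ± 0.0925 (2.04-fold, 95% CI 0.83 to 1.23, limma adjusted p = 6.9e-05). EMP1, a relative of EMP3, had 0.22, 0.38 and 0.62 on the 3 plates, a mean of 0.41 ± 0.171 that was not called (limma adjusted p = 0.21).

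S100A2 and S100A6 belong to the S100 proteins, small calcium-binding proteins encoded in a cluster on chromosome 1. S100A2 was scarce in NEC, at levels of -6.91, -7.03 and -6.90, and reached -5.54, -5.99 and -5.00 in CA. All CA samples lay above all NEC samples, and the plates spread more in CA than in NEC. The difference was 1.44 ± 0.338 (2.70-fold, limma adjusted p = 0.0478). The NEC levels of S100A2 were in the range of those of TNFRSF9 (-6.34, -7.31 and -6.85), a gene limited by late CTs. S100A6, an abundant transcript, was at 7.53, 7.85 and 7.86 in NEC and at 7.88, 8.67 and 8.59 in CA. Plate 1 was the lowest in both groups, and its CA sample was barely above the highest NEC sample. The difference was 0.63 ± 0.152 (1.55-fold, limma adjusted p = 0.0482). S100A4 had 0.45 ± 0.160, close to 0 on plate 1 (0.03) and higher on plates 5 and 6 (0.58 and 0.73), and S100A11 had 0.31 ± 0.120. Neither was called (limma adjusted p = 0.135 and 0.163).

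Together with the keratins, the S100 and EMP genes form a list of 8 genes tested, of which 3 were called higher and none lower, against 2.46% higher among all genes. All 8 had a positive difference, and the list's median difference was 0.43 beside -0.005 over all genes. On every plate 7 were higher, beside 26.4% of all genes with a value on each plate. The list was written with earlier results of these data known, so its shared direction is a description only. The keratins had the smaller values. KRT18, a keratin of simple epithelia, had 0.27 ± 0.0922 and KRT80 0.15 ± 0.138, and neither was called.

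**Figure D2:**
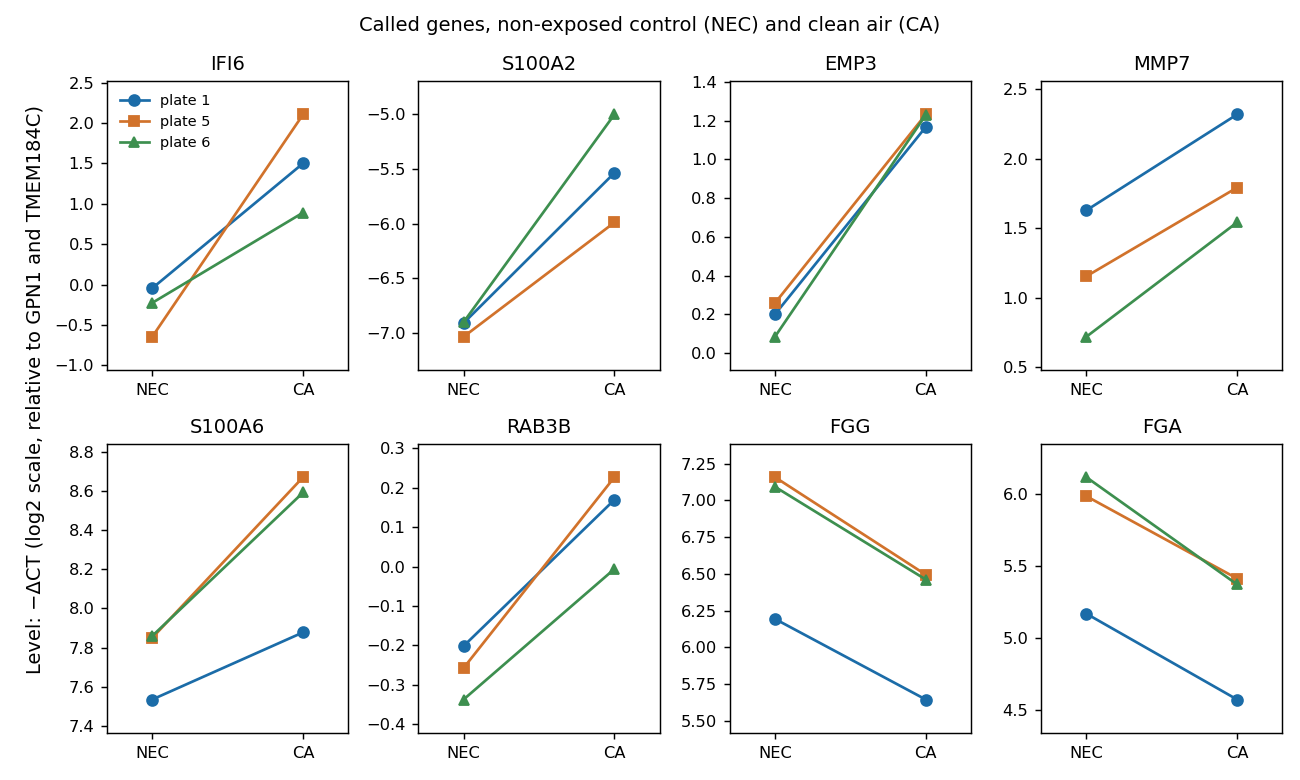
Levels (negative ΔCT, log2 scale) of 8 of the 9 called genes in NEC and CA, with 1 line per exposure plate and a separate vertical scale for each gene. Every line rises for the first 6 genes and falls for FGG and FGA, while plate 1 stands apart in MMP7, S100A6, FGG and FGA.

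A matrix-degrading enzyme rose. MMP7, matrilysin, is a matrix metalloproteinase made by epithelial cells. It was at 1.63, 1.15 and 0.72 in NEC and at 2.32, 1.79 and 1.54 in CA. The groups overlapped, since NEC on plate 1 was above CA on plate 6, but CA was the higher on each plate, by 0.69, 0.64 and 0.83. The difference was 0.72 ± 0.129 (1.65-fold, limma adjusted p = 0.0228).

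Of 6 tested genes of matrix and basement membrane, 2 were called higher, MMP7 among them, against 2.46% higher among all genes, and the list's median difference was 0.43. LOXL2, which crosslinks collagen, had 0.60 ± 0.180 (limma adjusted p = 0.0824), with 0.83, 0.36 and 0.63 on the plates. LAMA3, a laminin alpha chain of epithelial basement membranes, had 0.26 ± 0.160, and COL17A1, a collagen of hemidesmosomes, had -0.01 ± 0.135. FN1, fibronectin, had the opposite sign on every plate (-0.41, -0.29 and -0.29), with a mean of -0.33 ± 0.104 that was not called (limma adjusted p = 0.0899). The members of the list thus did not have 1 direction. Among protease inhibitors, SPINK1 had 0.52 ± 0.133 (limma adjusted p = 0.0523), SERPINE2 had 0.28 ± 0.121, and neither was called.

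IFI6, a small membrane protein induced by type I interferon, had the largest difference of the called genes. Its level was -0.05, -0.65 and -0.23 in NEC and 1.50, 2.11 and 0.89 in CA. The groups did not overlap, although the difference ranged from 1.12 on plate 6 to 2.75 on plate 5. The mean difference was 1.81 ± 0.392 (3.50-fold, 95% CI 0.94 to 2.67, limma adjusted p = 0.0387). IFIT1, an interferon-induced protein that binds foreign RNA, had 0.87 ± 0.395 and was not called (limma adjusted p = 0.237), with 0.18 on plate 1 and 1.33 and 1.10 on plates 5 and 6. BST2, tetherin, is on no list, was looked up after its value was seen and had 0.78 ± 0.336 (limma adjusted p = 0.221). A value picked in this way is no sign of a shared direction. APOBEC3F, also on no list, had -0.56 ± 0.236 (limma adjusted p = 0.214), and APOL2 had -0.01 ± 0.127. The panel held 3 genes of the interferon list, of which IFI6 and IFIT1 were tested.

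The 250 bases before the transcription start are shown for IFI6 and IFIT1, the interferon-induced genes tested. Sequences are from RefSeq (GRCh38.p14), written 5′ to 3′ on the strand of the gene, and capitals mark the core of the interferon-stimulated response element (GAAA, any 2 bases, GAAA) on either strand.
IFI6, chr1:27672193-27672442, minus strand: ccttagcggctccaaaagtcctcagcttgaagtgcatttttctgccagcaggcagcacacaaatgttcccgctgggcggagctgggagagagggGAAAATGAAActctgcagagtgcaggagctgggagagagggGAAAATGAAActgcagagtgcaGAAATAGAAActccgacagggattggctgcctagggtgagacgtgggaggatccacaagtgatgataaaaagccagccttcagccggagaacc
IFIT1, chr10:89392373-89392622, plus strand: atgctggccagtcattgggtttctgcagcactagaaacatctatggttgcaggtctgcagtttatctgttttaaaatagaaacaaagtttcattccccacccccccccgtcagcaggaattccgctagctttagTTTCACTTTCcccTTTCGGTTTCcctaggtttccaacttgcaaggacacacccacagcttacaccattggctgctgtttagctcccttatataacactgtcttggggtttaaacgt

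IFI6 held 3 matches and IFIT1 held 2, and 3.02% of the 35116 promoter windows of this length in the table held at least 1, as did 3.60% of those of the genes tested. A match is a string of letters and says nothing of binding in these cells. EMP3 held 1 match as well.

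RAB3B, a small GTPase of regulated secretion, had the smallest difference among the called genes and a narrow spread. It was at -0.20, -0.26 and -0.34 in NEC and at 0.17, 0.23 and -0.01 in CA, without overlap. The difference was 0.40 ± 0.0897 (1.32-fold, limma adjusted p = 0.0416).

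Fibrinogen is a clotting protein built from alpha, beta and gamma chains, whose genes FGA, FGB and FGG lie side by side on chromosome 4 and are known from liver to be expressed together. FGA was at 5.17, 5.98 and 6.12 in NEC and at 4.57, 5.41 and 5.37 in CA. FGG was at 6.19, 7.16 and 7.09 in NEC and at 5.65, 6.49 and 6.46 in CA. Plate 1 was low in both groups, so that the groups overlapped, and CA was lower on each plate. The difference was -0.64 ± 0.140 for FGA (1.56-fold lower, limma adjusted p = 0.0387) and -0.61 ± 0.133 for FGG (1.53-fold lower, limma adjusted p = 0.0387). FGB, at 5.74, 6.52 and 6.42 in NEC and at 5.24, 5.86 and 5.91 in CA, had -0.55 ± 0.141, which missed the threshold (limma adjusted p = 0.0523).

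The same 250 bases are shown for the 3 fibrinogen genes, with capitals for CTGGGAA, the letters of an interleukin 6 response element known from fibrinogen promoters.
FGB, chr4:154562730-154562979, plus strand: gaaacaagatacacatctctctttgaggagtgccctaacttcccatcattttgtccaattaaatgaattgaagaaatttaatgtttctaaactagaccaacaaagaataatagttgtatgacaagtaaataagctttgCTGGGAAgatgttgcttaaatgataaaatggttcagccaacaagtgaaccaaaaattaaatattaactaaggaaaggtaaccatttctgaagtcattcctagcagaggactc
FGA, chr4:154590743-154590992, minus strand: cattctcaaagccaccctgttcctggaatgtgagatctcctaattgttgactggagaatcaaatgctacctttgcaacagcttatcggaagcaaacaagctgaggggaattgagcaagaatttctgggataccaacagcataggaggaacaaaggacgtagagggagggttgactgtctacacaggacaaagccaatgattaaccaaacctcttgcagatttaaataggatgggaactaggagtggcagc
FGG, chr4:154612657-154612906, minus strand: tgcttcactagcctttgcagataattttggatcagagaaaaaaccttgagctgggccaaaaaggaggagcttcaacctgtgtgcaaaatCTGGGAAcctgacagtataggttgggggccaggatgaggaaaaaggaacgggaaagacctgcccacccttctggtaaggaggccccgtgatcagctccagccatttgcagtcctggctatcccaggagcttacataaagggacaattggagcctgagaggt

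FGB and FGG held 1 match each and FGA held none, while 9.15% of all windows and 10.8% of those of the genes tested held at least 1. The FGA window does hold ctgggat, which differs from the searched letters only in the last. The count therefore does not show that FGA lacks the element. In all, 10 motifs were searched on both strands in the windows of the called genes and of FGB and IFIT1, and all were chosen after the values were seen. AP-1 (TGANTCA, 6.57% of all windows and 11.7% of those of the genes tested) was found in MMP7, S100A2 and RAB3B. TATAAA (10.7% and 10.8%) was found in MMP7 and EMP3, and the relaxed C/EBP letters TTNNGNAA (33.2% and 29.7%), which can overlap other motifs, in FGA, FGB, FGG and S100A6. The TEAD letters GGAATG (11.9% and 11.3%) were found in FGB, FGA and IFIT1. No match was found for HNF1 (0.0057%), the C/EBP palindrome TTGCGCAA (0.131%), the SMAD palindrome GTCTAGAC (0.182%) or HNF4 (CAAAGTCCA, 0.325%). These strings are rare among all windows, so the lack of an exact match does not show that such sites are absent. Of the 9 called genes 8 had a window in the table, and 222 of the genes tested did.

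FGA and FGG were the 2 called genes among 18 tested genes of fibrinogen, coagulation, complement and plasma carriers, against 0.704% lower among all genes. In this list 16 differences were negative and the median was -0.21. On every plate 13 genes were lower, beside 20.7% of all genes with a value on each plate. This list too was written with earlier results of these data known. ALB, albumin, had -0.58 ± 0.186 (limma adjusted p = 0.0952), and HPX, the haem carrier hemopexin, had -0.98 ± 0.343 (limma adjusted p = 0.12). HPX rested largely on plate 1, where the difference was -1.59, against -0.66 and -0.71 on the others. SERPINA1, alpha 1 antitrypsin, had -0.33 ± 0.216. TFPI2, an inhibitor of coagulation, and C1R, a complement protease, had small positive values of 0.12 ± 0.0866 and 0.04 ± 0.162. LBP, which binds bacterial lipopolysaccharide in plasma and is on no list, had -0.70 ± 0.257 and was named after its value was seen.

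**Figure D3:**
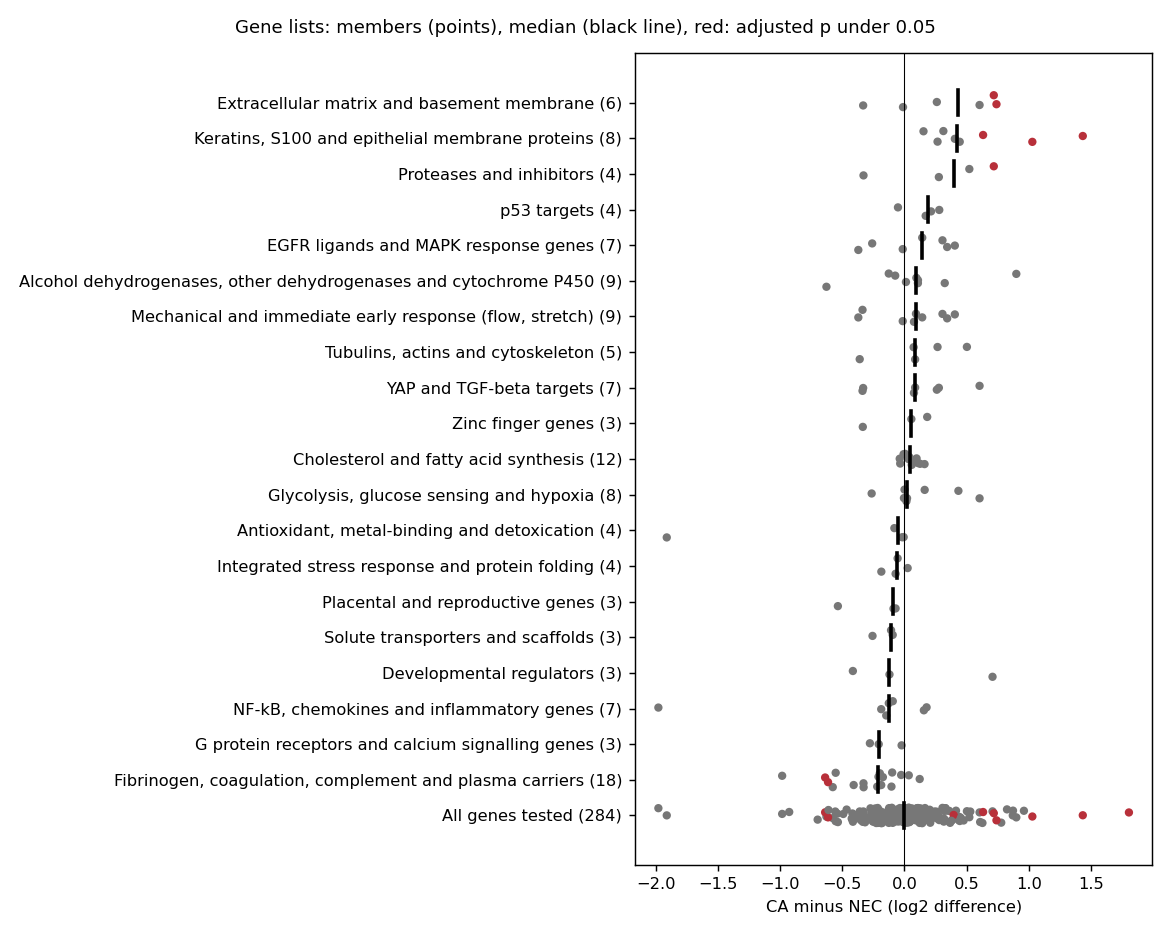
CA minus NEC differences (log2) of the members of each gene list with at least 3 genes tested, 1 point per gene, with the list's median as a black line, called genes in red and the number of genes tested in brackets. The medians of the matrix list and of the keratin, S100 and EMP list are 0.43, that of the plasma protein list is -0.21, and that of all genes is -0.005.

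Just outside the threshold stood DHRS9, a dehydrogenase of retinoids and steroids, at -3.34, -3.44 and -3.29 in NEC and -2.17, -2.49 and -2.71 in CA. The groups did not overlap, and the difference was 0.90 ± 0.220 (limma adjusted p = 0.0502). ADH4, an alcohol dehydrogenase, had a nearly equal difference on every plate (-0.62, -0.64 and -0.62), with a mean of -0.63 ± 0.159 that was not called (limma adjusted p = 0.0523). Neither these genes nor the other 7 of the list of dehydrogenases and cytochrome P450 genes were called, beside 3.17% of all genes.

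Further genes had the same sign on all plates and values that missed the threshold. HOXC5, a homeobox transcription factor, was at -4.34, -4.24 and -4.41 in NEC and at -3.64, -3.61 and -3.62 in CA, without overlap (0.71 ± 0.194, limma adjusted p = 0.0671). SPNS2, a transporter of sphingosine 1-phosphate, had 0.63 ± 0.174. SLAMF7, a receptor of the SLAM family, had 0.99, 0.98 and 0.91 on the 3 plates, with a mean of 0.96 ± 0.290. PALM2, a paralemmin, had 0.87 ± 0.276. SLAMF7 and PALM2 are on no list and were named after their values were seen. On the negative side, the solute carrier SLC17A3 had -0.61 ± 0.161, the calcium channel subunit CACNA1D -0.49 ± 0.151, the Notch target HES1 -0.41 ± 0.116 and the vitamin C transporter SLC23A1 -0.42 ± 0.130. CFHR2, a complement-related plasma protein, had -0.93 ± 0.311, with -0.34 on plate 1 and -1.41 on plate 5. With an adjusted p under 0.10 in place of 0.05, 31 genes (10.9%) would have passed, 21 higher (7.39%) and 10 lower (3.52%).

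**Figure D4:**
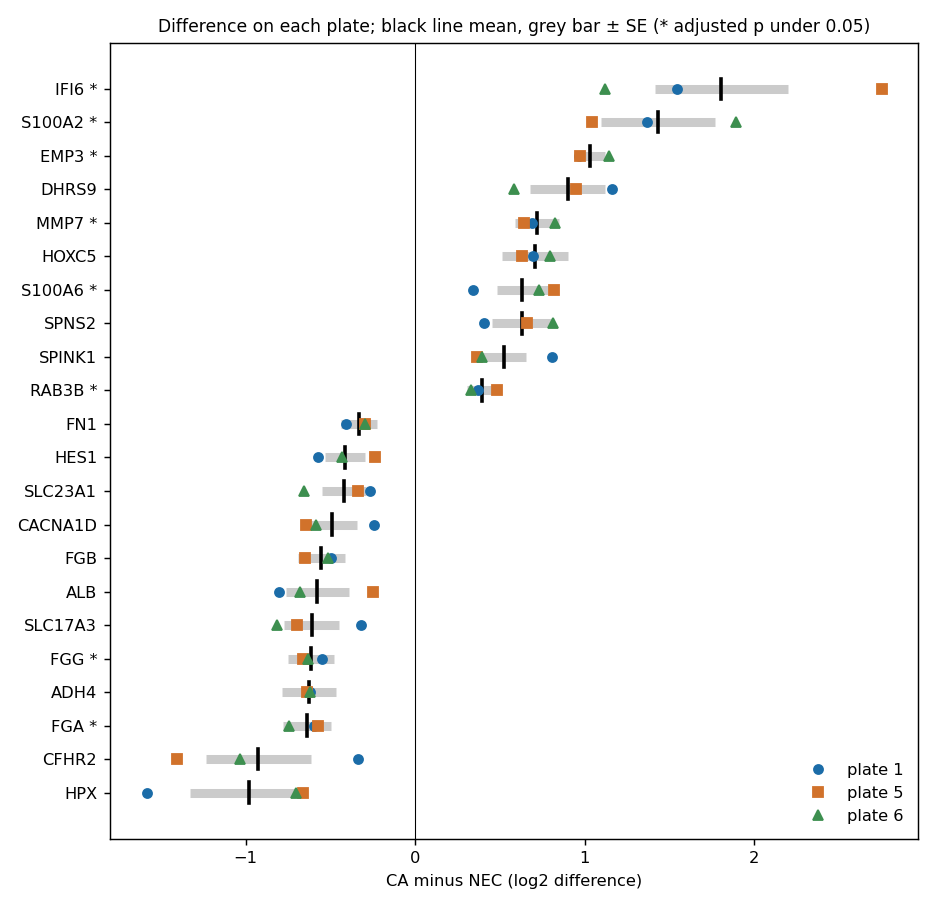
CA minus NEC difference (log2) on each exposure plate for 22 genes that passed or came nearest to passing, 10 higher and 12 lower, with the mean as a black line and ± SE as a grey bar. The SE is from the fit to all 15 samples and is not the spread of the plate points. All 22 genes have 1 sign on the 3 plates, and IFI6, CFHR2 and HPX are spread most.

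Of 9 immediate early and mechanically induced genes tested, none was called, beside 3.17% of all genes, a share at which a list of this size is not set apart by having no call. The list's median was 0.09. In this list the EGFR ligands AREG and EREG had 0.31 ± 0.175 and 0.34 ± 0.166, the transcription factor EGR2 had -0.37 ± 0.331, and ANKRD1, a target of YAP, had -0.34 ± 0.276 with 0.22, -0.40 and -0.83 on the plates. The osmotic list had 2 tested members, WNK1, a kinase that senses chloride (-0.01 ± 0.121), and CLDN2, a channel-forming claudin (-0.09 ± 0.102). No heat shock gene of the list was on the panel. CDH1, E-cadherin, had -0.02 ± 0.111. The intervals of the variable genes were wide, with a 95% CI of -0.94 to 0.27 for ANKRD1, so that changes as large as those of called genes were not excluded.

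The stress and metabolic lists held no called gene either, and are too short for this to differ from the 3.17% of all genes, so their values are given as a description. In the integrated stress response DDIT3 had -0.05 ± 0.231, CHAC1 -0.19 ± 0.174 and PPP1R15A 0.03 ± 0.213. Of 4 p53 targets, FAS, a death receptor, had 0.28 ± 0.113 and MDM2, which degrades p53, 0.21 ± 0.131. The 12 genes of cholesterol and fatty acid synthesis lay close together, between -0.04 and 0.16, with a median of 0.04. Of 8 glycolysis and hypoxia genes, PGK1, phosphoglycerate kinase, had 0.43 ± 0.141 (limma adjusted p = 0.0961) and LDHA, lactate dehydrogenase, 0.16 ± 0.122. Of 7 inflammatory genes tested, CXCL5 had -0.13 ± 0.118 and the NF-kB target BIRC3 0.18 ± 0.127. CCL20, a chemokine, ran from 0.49 on plate 1 to -0.64 on plate 6.

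A few genes lay at the limit of detection, where a CT near 35 carries little information. MT2A, a metal-binding metallothionein, had CTs of 33.6, 33.2 and 33.2 in NEC, and in CA gave no product on plate 1 and CTs of 35.5 and 36.2 on plates 5 and 6. The authors set both late wells to 35, and with plate 1 left out of its fit the difference was -1.91 ± 0.760, which was not called (limma adjusted p = 0.185). TNFRSF9, a costimulatory receptor also known as 4-1BB, had CTs of 31.0, 32.5 and 31.8 in NEC and, in CA, no product on plate 1, then 35.8 and 33.01. Its difference over plates 5 and 6 was -1.98 ± 0.998 (limma adjusted p = 0.324). In both genes every CA well came later than every NEC well or gave no product. Among the CA and NEC samples, IL1RL1, the interleukin 33 receptor, gave a product only in CA on plate 6 (CT 31.6) and was not tested. It also gave a product in samples of each dose. ANG, angiogenin, a ribonuclease, had no product only in the NEC well of plate 6, so that the plate was missing from its difference of -0.12 ± 0.157.

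The exposure plates also set the samples apart. Principal components were taken over the 280 genes measured in every NEC and CA sample. The first component (46.7% of the variance) put plate 1 (scores -3.49 for NEC and -5.16 for CA) against plates 5 and 6 (0.67 to 3.93). The second component (29.6%) put the 3 NEC samples (-3.67, -1.37 and -2.20) below the 3 CA samples (0.85, 3.79 and 2.59), with IFI6, S100A2 and IFIT1 as the genes of largest weight. The median difference over genes was 0.10 on plate 1, -0.02 on plate 5 and -0.05 on plate 6. Of 280 genes with a value on every plate, 132 (47.1%) had 1 sign on all of them, 74 higher (26.4%) and 58 lower (20.7%). For 48 of 284 genes (16.9%) the groups did not overlap, with CA the higher for 10.6% and the lower for 6.34%. The differences correlated across genes between plates with Pearson's r of 0.46, 0.53 and 0.59, as a description of genes that are not independent and share the normalisation genes of their sample. The widest ranges over plates were those of scarce genes such as CFAP53, a cilium protein (1.30, -1.46 and 0.74), and ADH1A (-0.04, 1.40 and -1.03).

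Over the 6 samples the normalisation genes had CTs of 25.0 to 25.7 for GPN1 and 24.2 to 24.6 for TMEM184C. Their levels are relative to their own mean and mirror each other, so a shift that both share cannot be seen in them. ACTA2, smooth muscle actin, was measured by 2 assays. They gave mean differences of 0.09 and 0.30, although the samples were the same. Their disagreement over the 6 samples corresponds to an SD of 0.104 cycles for a single assay. This is the spread of a single measurement and not the SE of a difference over plates.

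The same genes can be set beside the doses, which share the CA samples with this comparison, so that the values are placed side by side and not compared by a test. EMP3 had means of 0.18 in NEC, 1.21 in CA, 1.82 in LD, 2.47 in MD and 2.57 in HD, and HD minus CA was 1.40 ± 0.113. S100A2 had means of -6.95, -5.51, -6.06, -4.99 and -3.72 in that order, with the LD mean below that of CA. MMP7 had 0.91 ± 0.158 between HD and CA, S100A6 0.60 ± 0.186 and RAB3B 0.54 ± 0.110. For FGA, FGG and FGB the difference between HD and CA was -1.77 ± 0.172, -1.58 ± 0.163 and -1.68 ± 0.173. DHRS9 had 2.63 ± 0.269.

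IFI6 and HOXC5 had the opposite sign between HD and CA. A high CA value raises CA minus NEC and lowers HD minus CA, so the shared samples alone can give opposite signs. Whether dimethylamine reverses the difference seen with flow was not tested. IFI6 had means of -0.31 in NEC, 1.50 in CA, 1.07 in LD, 0.57 in MD and -0.19 in HD, so that the HD mean was near that of NEC, and HD minus CA was -1.43 ± 0.480 (limma adjusted p = 0.0194). HOXC5 had -4.33 in NEC, -3.62 in CA and -4.80 in HD, with -1.14 ± 0.238 between HD and CA (limma adjusted p = 0.0014). Since each dose lay on a single plate, the plate in these dose values was estimated from CA and NEC only.

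**Figure D5:**
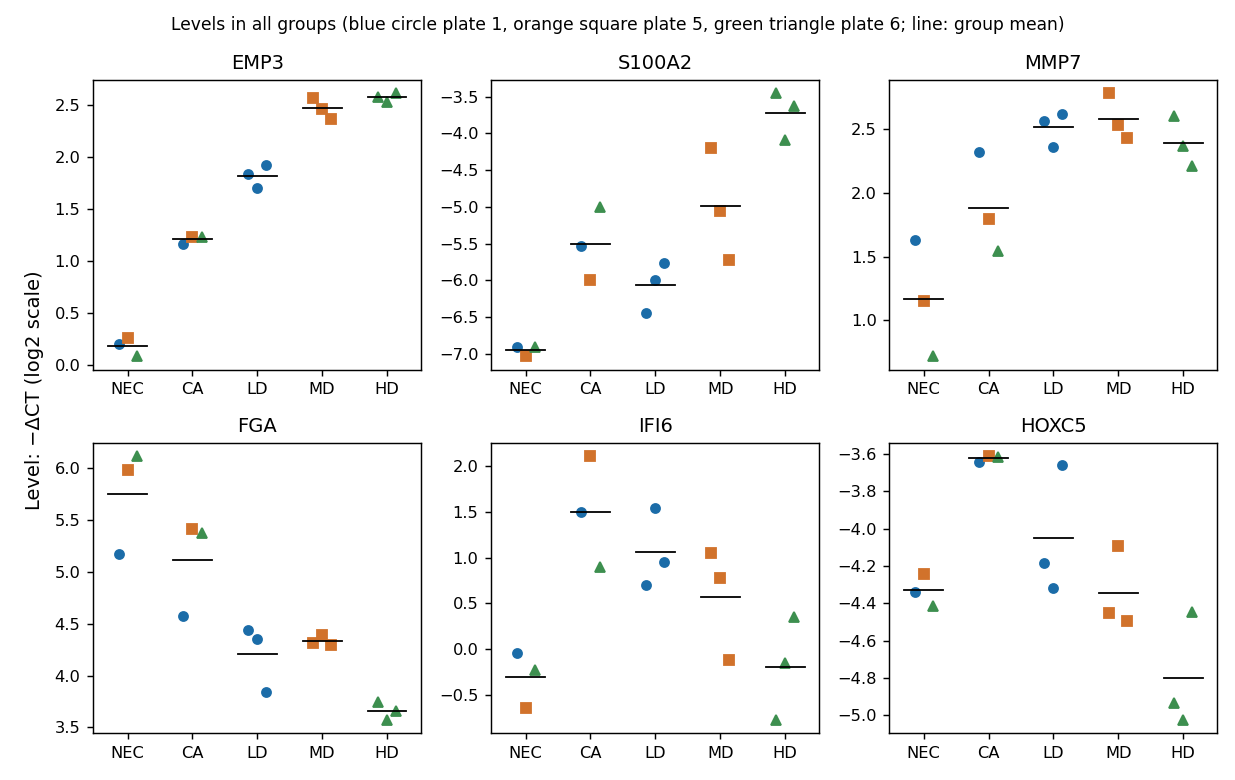
Levels (negative ΔCT, log2 scale) of 6 genes in NEC, CA, LD, MD and HD, with 1 point per sample, colour and shape for the exposure plate, a line for the group mean and a separate vertical scale for each gene. The CA mean lies between those of NEC and HD for EMP3, S100A2, MMP7 and FGA, and above both for IFI6 and HOXC5.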

How the data were processed

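RNA from 15 samples of A549 cells was run by the study on customised PCR arrays, without read depth. The authors deposited CT values in cycles, with wells without product marked, and a second matrix of log2-scale values, in which the mean CT of 2 normalisation genes had been subtracted and lower values stand for more RNA. In that matrix the authors had set wells above 35 to 35 and filled in missing wells. Here missing wells stayed missing and the sign was turned. The authors' table of ratios (fold change of each group over CA) was not used.

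A model with 1 mean per group and the exposure plate as a block was fitted to all 15 samples with limma 3.58.1 (lmFit, eBayes) in R 4.3.3, two-sided, and tested on simulated data. CA and NEC samples of 1 plate are paired by their labelled exposure plate. Their deviations from the group means correlated across genes with r of 0.69, 0.31 and 0.36 on plates 1, 5 and 6. Between CA and NEC samples of different plates, r was 0.27 and 0.37 for plates 5 and 6. With plate 1 it lay between -0.55 and -0.38. These values set plate 1 apart and do not tell plate 5 from plate 6. Genes detected in both groups on at least 2 plates were tested, GPN1 and TMEM184C included. A rule named the 12 genes with the smallest p or largest called difference in each direction. It added up to 4 per list from 27 lists, the normalisation genes, genes with missing wells and the 5 most variable over plates. Further genes, some on a list and some on none, were named with their values seen. Members and lists were chosen with earlier results of these data known. Other settings covered the block, the samples, the normaliser, missing and late wells, the test and each plate left out. Where RefSeq listed several promoter windows for a gene, the first was used. Some genes that the rule names are not reported here. Figures were drawn with matplotlib 3.10.9 in Python 3.11.15.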

Additional observations from a re-analysis of the deposited data

How the results depend on the processing

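The number of called genes depended on the processing, while the direction of each of the 9 called genes was the same in all 16 settings tried. Most settings could not have changed it. Those for the block, the test or the genes tested leave these differences as they are. Each called gene also had 1 sign on all plates, so leaving out a plate could not turn it. Only a change of normaliser could have done so. EMP3 was the only gene called in all 16. IFI6 passed in 10, S100A2 in 6, and the others in 5 to 10. Against 7 higher and 2 lower as reported, the fit with no replicate block called 3 higher (EMP3 and IFI6 among them) and 0 lower, with 46 genes at an unadjusted p under 0.05 (limma). The 6 CA and NEC samples alone gave 23 higher and 13 lower with the replicate block, and 8 higher and 1 lower without it. Raw CT without normalisation genes gave 1 higher and 0 lower, and GPN1 alone 2 higher and 0 lower. The median of all detected genes as normaliser gave 5 higher and 4 lower. Leaving out late genes gave 9 higher and 4 lower, as did treating wells above 35 as missing. A variance trend with robust moderation gave 15 higher and 9 lower, and a linear model without moderation 3 higher and 0 lower. Leaving out plate 1, 5 or 6 gave 1 gene higher (EMP3) and 0 lower each time, from 2 pairs instead of 3. With GPN1 and TMEM184C left out of the genes tested, an alternative added after seeing the data, 8 genes were higher and 2 lower, the addition being DHRS9. The cause of these shifts was not tested. Late CTs limit MT2A, TNFRSF9 and other scarce genes, and the number of plates limits all.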
